A study of Mus musculus with 84 samples.

Results

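The cells described here are the 59 P neurons of the series, divided by whether their library held RNA of Cx3cr1, the fractalkine receptor by which microglia sense neurons. The members were chosen by their raw Cx3cr1 count: 31 P cells had at least 1 count and 28 had 0, out of 84 cells in all, the other 25 being F cells. F and P are letters in the sample titles that the labels do not spell out. Every cell was a single patch-clamped neuron of the prefrontal cortex in an acute brain slice of untreated C57/BL6/N mice, whose RNA was drawn into the pipette, amplified by the aRNA procedure (linear amplification by transcription) and sequenced from a stranded TruSeq library. The labels name neither the animal nor its age for any cell. The P cells therefore count as 1 sample, the sides were set by a measured value of the same libraries, and all differences between the sides are given as descriptions without a test.

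Microglia are the resident macrophages of the brain, and their processes touch neuronal cell bodies. In the cortex Cx3cr1 is made by microglia and by other cells of the macrophage lineage, while its ligand Cx3cl1 is made by neurons. A library of a patched neuron can hold RNA of other cells beside that of the neuron, and the counts do not give its source. In these libraries, fewer cells of a type and less RNA from each of them cannot be told apart.

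Of the 31 cells with Cx3cr1, 15 had exactly 1 count, 3 had 3 or 4, and 13 had between 8 and 38976 counts. The 15 cells with 1 count lie just inside the rule and the 28 cells with 0 just outside it. Depth differed between the sides: the total count was 22938 at the lowest, 3861311 at the median and 16251918 at the highest in cells with Cx3cr1, and 19802, 851423 and 11610596 in cells without. The median number of other genes found was 3888 with and 2897.5 without. After every cell was thinned at random to 139788 counts, which left 30 cells with and 23 without, these medians were 1773 and 1779. The newer version of the basecalling software held 27 cells with and 26 without Cx3cr1, and the older one held 4 and 2. The ribosomal RNA gene Rn45s took 0.103% to 21.6% of a cell's counts with Cx3cr1 and 0.0441% to 78.5% without. No pair of P libraries held identical values.

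Values are CPM, the count divided by the total of the cell and multiplied by 1000000, averaged over the cells of a side with equal weight, and the log2 fold is log2((mean with + 1)/(mean without + 1)). Of 11247 genes found in at least 6 P cells, 40.9% had a mean at least 2-fold higher in cells with Cx3cr1 and 22% a mean at least 2-fold lower. After thinning these shares were 39.4% and 22.4%. At full depth 83.6% of the genes were found in a larger share of the cells with Cx3cr1, and after thinning 60.6%. A second thinning to 1000000 counts, chosen after seeing the data, left 28 cells with and 13 without and gave 38% higher, 23.6% lower and 44.6% found in a larger share. Every count of genes below stands against these shares, since a 2-fold difference of means was common. The cause of these shares was not tested.

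Microglial genes had higher means in cells with Cx3cr1. All 14 genes of a core list of microglial markers had a mean at least 2-fold higher, with a median log2 fold of 5.74 against 0.46 over all measured genes, and 5.68 against 0.37 after thinning. Each of the 14 was found in a larger share of the cells with Cx3cr1 at full depth and 13 of 14 after thinning, the exception being Ptprc. Of a longer list of 50 microglial genes, 41 were measured, 34 of them at least 2-fold higher and 0 at least 2-fold lower, with a median log2 fold of 4.80. After thinning 35 were at least 2-fold higher and 38 of 41 were found more often. At 1000000 counts, where fewer than 50% of all genes were found more often with Cx3cr1, 36 of the 41 were. A gene could be measured through cells of 1 side alone. Of the 41, 3 had no count in any cell without Cx3cr1, among them Tmem119 of the core list. Over all 11247 measured genes this held for 121. For such genes only a higher mean was possible, so their direction carries no weight.

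**Figure D1:**
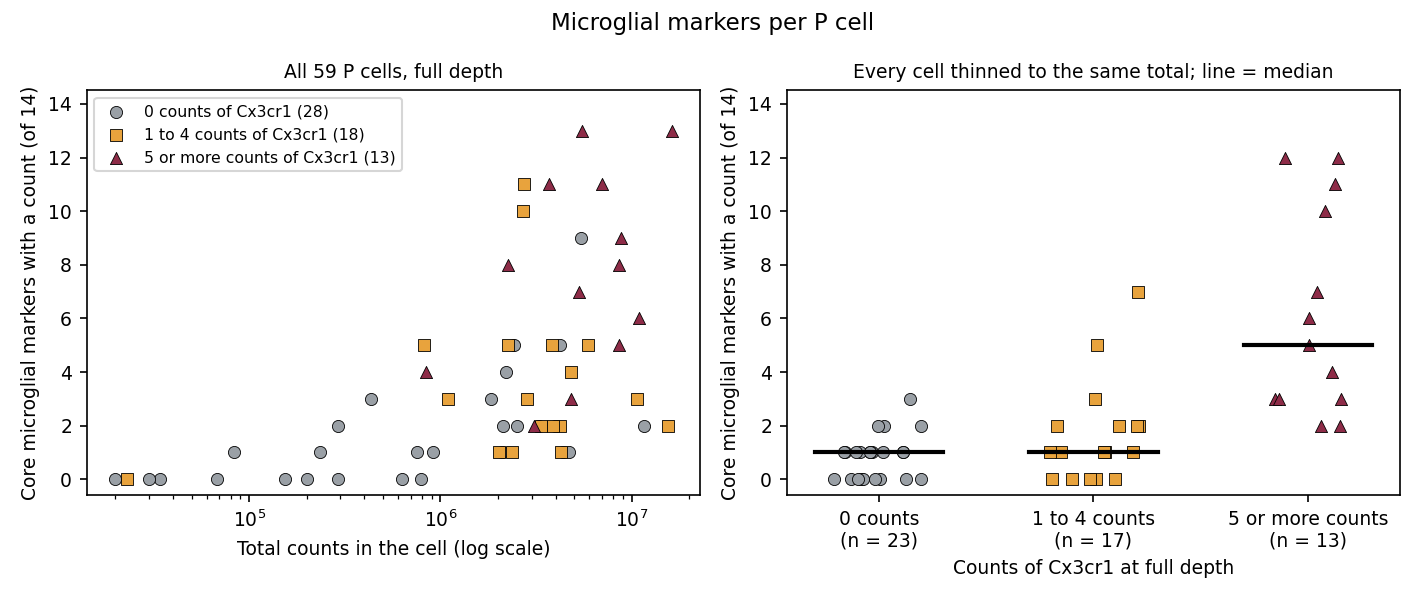
Core microglial markers with at least 1 count in each P cell (vertical axis, of 14), against the cell's total counts on a log axis (left) and by Cx3cr1 count after every cell was thinned to the same total (right, line at the median, points spread sideways for legibility). After thinning, the median is 1 in cells with 0 and in cells with 1 to 4 counts, and 5 in cells with 5 or more.

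The complement genes C1qa, C1qb and C1qc encode the 3 chains of C1q, which tags synapses and debris for removal and is made in the brain by microglia. C1qc was found in 14 of 31 cells with Cx3cr1 and 2 of 28 without, with mean levels of 262 and 2.43 CPM. C1qb was found in 12 and 3 cells, at 85.7 and 0.313 CPM. C1qa was found in 11 and 3 cells, at 54.3 and 0.113 CPM. The log2 folds were 6.26, 6.05 and 5.64 for C1qc, C1qb and C1qa, and 5.11, 5.15 and 5.06 without the highest cell of each, which was P32 for C1qc and C1qa and P14 for C1qb. The median was 0 CPM for all 3 genes on both sides, so the means rest on a minority of the cells. All 3 chains together were found in 7 of the 13 cells with 5 or more Cx3cr1 counts, and in 0 of 18 with 1 to 4 and 0 of 28 with 0. At least 1 chain was found in 13, 7 and 8 of these cells.

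Trem2, a lipid-sensing receptor, signals through the adaptor Tyrobp. Trem2 was found in 10 cells with Cx3cr1 and in 1 without, P5, at mean levels of 213 and 0.0132 CPM. The cells with Cx3cr1 held 41534 Trem2 counts in all and the others 2, a ratio per total count of 7285 with a 95% counting interval of 2017 to 60157. Its log2 fold was 7.72, and 6.28 without its highest cell, P32. Tyrobp was found in 14 and 4 cells, at 97.1 and 1.03 CPM, with a log2 fold of 5.60 and of 4.62 without its highest cell, P29. Both genes together were found in 6 of 13 cells with 5 or more Cx3cr1 counts, 2 of 18 with 1 to 4 and 1 of 28 with 0.

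Csf1r is the receptor for the growth factors Csf1 and Il34, on which microglia depend for survival. It was found in 17 of 31 cells with Cx3cr1 and 3 of 28 without, at 125 and 1.19 CPM. In cells with Cx3cr1 the lowest value was 0, the median 0.169 and the highest 1805 CPM, in P19, and the highest value without Cx3cr1 was 28.8 CPM, in P41. Its log2 fold was 5.85, and 5.00 without P19.

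Tmem119 and P2ry12 mark microglia against other macrophages. Tmem119 was found in 6 cells with Cx3cr1 and in 0 of 28 without, which, taken as 3 of 28, allows a share of up to 10.7%, the Clopper-Pearson limit being 12.3%. Its 4148 counts lay almost wholly in 1 cell, P17, at 1421 CPM and 99.4% of the summed CPM. Against a floor of 3 counts over the cells without Cx3cr1 the level per total count was at least 485-fold higher, but without P17 the log2 fold of the means was 0.36. P2ry12, the receptor that guides microglial processes to ADP, was found in 12 and 4 cells, at 250 and 0.533 CPM, and its highest cell, P38 with 5533 CPM, had 1 count of Cx3cr1. Its log2 fold was 7.35, and 5.60 without P38. P2ry12, Tmem119 or Siglech, a microglial lectin, was found in 10 of 13 cells with 5 or more Cx3cr1 counts, 8 of 18 with 1 to 4 and 4 of 28 with 0.

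Ctss, a lysosomal protease, had the highest mean CPM of the core list in cells with Cx3cr1. It was found in 15 cells with and 6 without, at 1016 and 0.719 CPM, and reached 6697 CPM in P4 against at most 7.83 CPM, in P44, on the other side. Its log2 fold was 9.21, and 8.91 without P4. Aif1, the cytoskeletal protein stained as Iba1, was found in 13 and 3 cells, at 497 and 29.1 CPM, with a log2 fold of 4.05 and of 3.50 without P31. Itgam, the integrin chain CD11b, was found in 12 and 3 cells, at 70 and 0.0391 CPM, with a log2 fold of 6.09 and of 4.81 without P32.

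Cd68 and Ptprc were the weakest of the 14. Cd68, a lysosomal glycoprotein of phagocytes, was found in 7 and 4 cells, at 13.9 and 1.99 CPM, and its log2 fold of 2.31 was 0.03 without P16. Ptprc, the phosphatase CD45 of all leukocytes, was found in 4 and 3 cells, at 86.8 and 0.798 CPM. P32 held 99.9% of its summed CPM with Cx3cr1, and without that cell the log2 fold turned from 5.61 to -0.68. Of the 14 core genes, 11 kept a 2-fold higher mean when each lost its highest cell, the exceptions being Tmem119, Cd68 and Ptprc. Of the 34 genes of the longer list this held for 28, or 82.4%, against 49.7% of the 4602 genes with a 2-fold higher mean in the whole table. The medians then were 4.91 for the core and 3.16 for the longer list, against 0.26 over all genes.

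**Figure D2:**
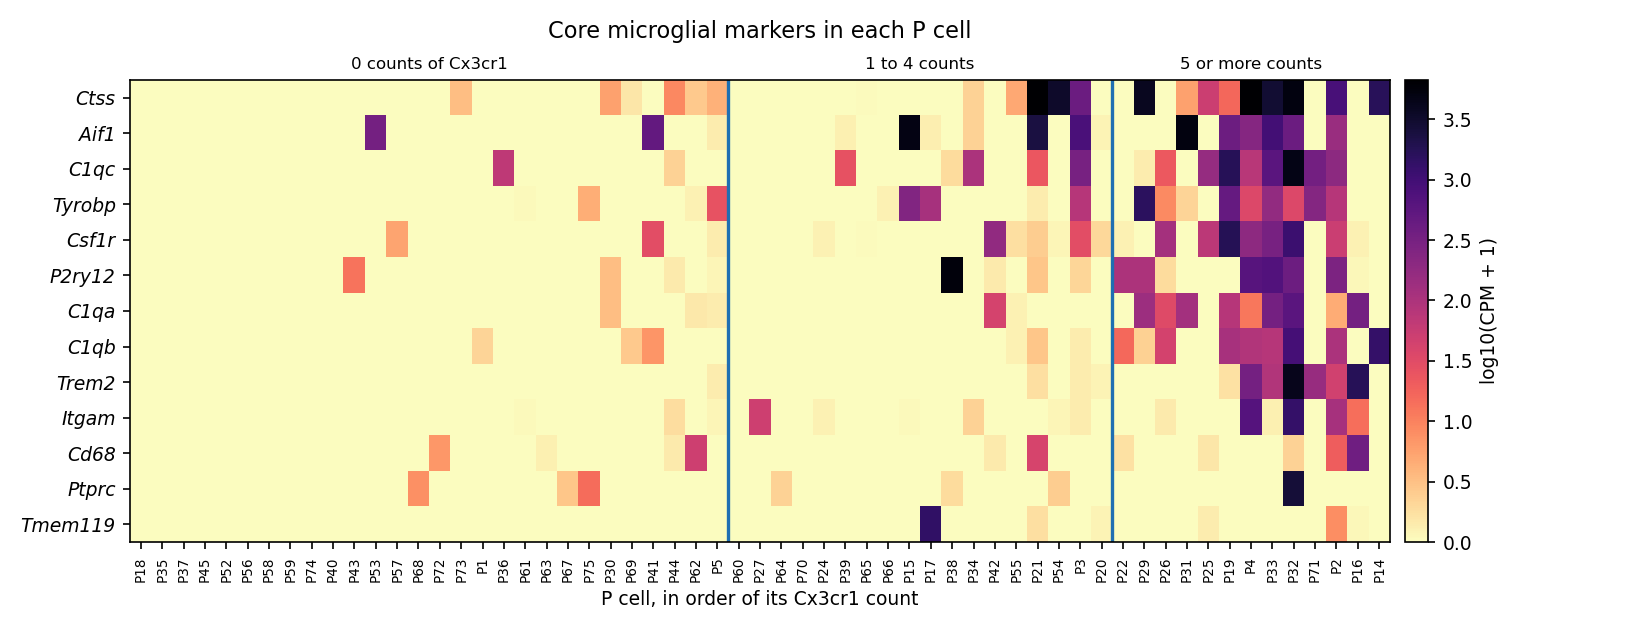
Level of 13 core microglial markers (rows) in each of the 59 P cells (columns, in order of Cx3cr1 count), as log10(CPM + 1) in colour, with lines between cells of 0, 1 to 4 and 5 or more counts. Runs of dark squares within a column are seen in a few cells such as P4, P33, P32 and P2, and isolated squares in many others.

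Further members of the microglial list were named only if their means differed at least 2-fold. Over the whole list 34 of 41 measured members were 2-fold higher and 0 lower, and those with smaller differences were not named. Laptm5, a lysosomal membrane protein of blood-lineage cells, was found in 14 cells with and 4 without, at 118 and 0.168 CPM. Siglech was found in 10 and 1, at 231 and 0.00661 CPM. Its 30797 counts stood against 1, a ratio of 10804 with a counting interval of 1939 to 426732. Gpr34, a lysophospholipid receptor of microglia, was found in 8 and 1 cells, its 3940 counts standing against 1. Rgs10, a regulator of G protein signalling, was found in 13 and 3 cells, at 112 and 10.6 CPM. Fcgr3, an immunoglobulin receptor, was found in 9 and 2 cells, at 27.3 and 0.116 CPM, and Ly86, a partner of a toll-like receptor, in 7 and 2, at 146 and 0.949 CPM. P32 was the highest cell for Siglech, Gpr34, Rgs10, Fcgr3 and Ly86, and P21 for Laptm5. Without the highest cell the log2 folds were 5.58 for Laptm5, 7.22 for Siglech, 2.60 for Gpr34, 2.83 for Rgs10, 3.16 for Fcgr3 and 2.99 for Ly86, where they had been 6.67, 7.85, 4.48, 3.29, 4.67 and 6.24. Counting 3 members with no count in cells without Cx3cr1 at the floor of 3 counts, the median of the 41 was 5.21.

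The RefSeq sequences upstream of the core genes were searched for GAGGAAG, a purine-rich core bound by the macrophage factor PU.1, on both strands. It was present within 250 bases before the start of 3 of the 9 core genes with an entry (C1qc, Itgam and Trem2), or 33.3%, and of 12% of 27025 genes. The 100 bases just before the start of Itgam (chr7:128062540-128062639, plus strand, GRCm38.p6) and of Trem2 (chr17:48346301-48346400, plus strand) are shown 5′ to 3′ with the match in capitals, 84 and 41 bases before the start, the latter on the reverse strand. A match of these letters is a description and not a binding site. Why core genes were found together in some cells was not tested.
Itgam: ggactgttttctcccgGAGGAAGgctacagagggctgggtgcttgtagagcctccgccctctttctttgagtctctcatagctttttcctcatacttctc
Trem2: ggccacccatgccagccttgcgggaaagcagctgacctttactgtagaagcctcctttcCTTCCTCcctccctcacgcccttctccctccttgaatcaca

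The 31 cells with Cx3cr1 were not alike. On average 54.9% of the 14 core markers were found in the 13 cells with 5 or more Cx3cr1 counts, 25.8% in the 18 cells with 1 to 4, 21.9% in the 15 of them with 1 count, and 12.2% in the 28 cells with 0. After thinning the 3 classes of 5 or more, 1 to 4 and 0 stood at 44%, 11.8% and 5.90%. Asking for at least 5 counts of a marker gave 48.4%, 11.5% and 4.08%. By each measure the step from 1 to 4 counts up to 5 or more was larger than the step from 0 to 1 to 4. Median totals were 5519488, 3095666 and 851423 counts in these classes, so depth moved with them at full depth.

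The same split showed in the summed level of the 50 microglial genes. The cells with 5 or more Cx3cr1 counts ranged from 822 to 50242 CPM with a median of 7319, those with 1 to 4 from 1.18 to 22171 with a median of 700, and those with 0 from 0 to 2685 with a median of 138. These ranges overlapped between all 3 classes. The 13 cells of the first class carried 69.1% of the sum over all P cells, the 18 of the second 25.7% and the 28 of the third 5.27%. The 10 highest cells all had Cx3cr1 and carried 77.8% of the sum, P32 alone 25.6% and P21 a further 11.3%. Without P32 the median log2 fold of the longer list was 3.25, and without P32 and P21 3.21. With only the 18 cells of 1 to 4 counts on the first side the median was 0.59, against 0.02 over all genes, and 28 of 41 members had a higher mean.

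Single cells went both ways. P14 had the highest Cx3cr1 count, 38976, yet only 2 of the other core markers, Ctss and C1qb, and P71 with 3209 counts had 3. P21 had 1 count of Cx3cr1 and 11 core markers, and P3 had 3 counts and 10. P5 had no Cx3cr1 count and 9 core markers, most at very low levels, of which 2 were left after thinning. P32 and P2 each had 13 of the 14, P2 being the deepest P library. All but 1 of the 31 cells with Cx3cr1 had at least 1 core marker, P60 with 22938 counts in all being the exception, as against 19 of the 28 without. At least 7 core markers were found in 8 of 13, 2 of 18 and 1 of 28 cells of the 3 classes.

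The contrast was also taken among cells of closer depth. Among the 30 deeper cells, 23 with and 7 without Cx3cr1, with median totals of 4834227 and 4362905, the median number of core markers was 5 and 2 and the median log2 fold of the longer list 5.73, against 0.55 over all genes. Among the 29 shallower cells, 8 with and 21 without, with medians of 1558198 and 432220, the numbers were 3.5 and 1, and the median log2 fold of the longer list was 0, against -0.095 over all genes. Only 2 of those 8 cells had 5 or more Cx3cr1 counts, against 11 of the 23 deeper ones. When the sides were set by the Cx3cr1 count left after thinning, 12 cells with stood against 41 without, and the median of the list was 3.31, against -0.30 over all genes.

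**Figure D3:**
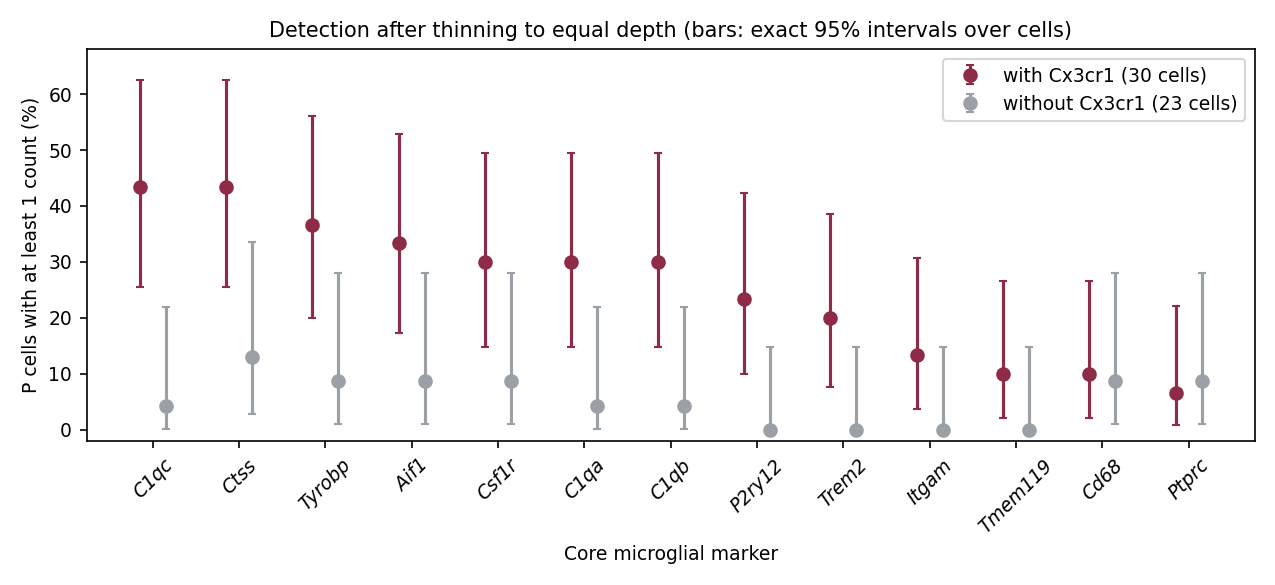
Percent of P cells with at least 1 count of 13 core microglial markers after thinning to 139788 counts, in the 30 cells with and the 23 cells without Cx3cr1, with exact (Clopper-Pearson) 95% intervals over cells. Points with Cx3cr1 lie above those without for all 13 but Ptprc, and the intervals overlap for all 13 but C1qc.

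After thinning, C1qc was found in 43.3% of the cells with Cx3cr1 (25.5 to 62.6%, Clopper-Pearson, 13 of 30 cells) and 4.35% of those without (0.110 to 21.9%, 1 of 23). Ctss was found in 43.3% and 13%, Tyrobp in 36.7% and 8.70% and Aif1 in 33.3% and 8.70%. P2ry12, Trem2, Itgam and Tmem119 were found in 7, 6, 4 and 3 cells with Cx3cr1 and in 0 of 23 without. Cd68 was at 10% and 8.70%, and Ptprc at 6.67% and 8.70%. The intervals cover the draw of cells alone and not differences between animals.

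Genes of activated or lipid-handling microglia were higher less uniformly. Of 21 measured members 12 were at least 2-fold higher and 1 lower, with a median log2 fold of 1.53, and after thinning 13 were higher, with a median of 2.13. Apoe, the lipid carrier made by astrocytes as well as by activated microglia, was found in 22 cells with and 11 without, at 832 and 35.5 CPM, with a log2 fold of 4.51 and of 3.36 without P21. Ctsd, a lysosomal protease that neurons also make, was at 587 and 110 CPM, and Ctsb, a related protease, at 405 and 155 CPM. The log2 fold of Ctsd was 2.4 and 1.97 without P21, while that of Ctsb was 1.38 and 0.90 without P64. Csf1 was the 1 member lower, at 0.211 and 1.65 CPM, and its log2 fold of -1.13 was -0.03 without P74. The remaining members were found in too few cells to measure. Tnf and Il1b, cytokines of inflammatory activation, had no count in any P cell. Of the cells with Cst7, Ccl6 or Ccl2, 3 of 3 had Cx3cr1 for each gene, and of those with Cd52 5 of 5. For Spp1 and for Tlr2 it was 3 of 4, and for Clec7a 2 of 3. These counts are at full depth, where 83.6% of the measured genes were found in a larger share of the cells with Cx3cr1.

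Most markers of other blood-lineage cells were too sparse to measure. Of the 5 measured genes of border macrophages, which sit along vessels and meninges and also make Cx3cr1, 0 were 2-fold higher and 0 lower, 2 having a higher mean with Cx3cr1 at full depth and 4 at 1000000 counts. Mrc1, the mannose receptor that defines them, was found in 5 and 3 cells, at 0.251 and 1.09 CPM, and after thinning in none. Their summed level ranged from 0 to 218 CPM with Cx3cr1 and from 0 to 29.2 CPM without, with medians of 0.445 and 0.414. Cbr2 was at 0 in all P cells, as were the T cell genes Cd3e, Cd4 and Cd8a. Of 15 blood leukocyte genes only 1 was measured. Others were found in too few cells and went both ways. Of the cells with Ccr2 or with Ms4a1, 4 of 4 had Cx3cr1, and of those with Itgal or the border macrophage gene Lyve1, 4 of 5. For H2.Aa and H2.Ab1, of the same macrophages, it was 1 of 3, and for Ccr1, Cd3d and S100a9 0 of 1. These counts are at full depth, where 83.6% of the measured genes were found in a larger share of the cells with Cx3cr1. Both measured red cell genes had lower means with Cx3cr1, but both were found in a larger share of those cells, also after either thinning. Hbb.b2, a beta globin gene, was found in 5 and 2 cells, at 2.13 and 17.4 CPM, with a log2 fold of -2.56 and of -0.69 without P44.

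Oligodendrocyte genes were also higher. Of 16 measured members 14 were at least 2-fold higher and 0 lower, with a median log2 fold of 2.86, and the counts were the same after either thinning, with medians of 3.16 and 2.79. When each gene lost its highest cell the median fell to 1.38, and 10 of the 14 stayed 2-fold higher, or 71.4%. Enpp2, a secreted lysophospholipase of myelinating cells, was found in 21 cells with and 8 without, at 415 and 52.9 CPM. Cnp, a myelin phosphodiesterase, was found in 10 and 2, at 41.1 and 0.626 CPM. Log2 folds were 2.95 and 4.70 for Enpp2 and Cnp, and 2.48 and 3.94 without P26 and P32. Mbp, myelin basic protein, was at 1039 and 427 CPM, with a log2 fold of 1.28 and of 0.63 without P21. The median summed level of the list was 360 CPM with Cx3cr1 and 44.8 without, with ranges of 2.48 to 17354 and 0 to 3794 that overlapped.

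Astrocyte genes were mixed. Of 30 measured members 19 were at least 2-fold higher and 5 lower, with a median log2 fold of 2.30. When each gene lost its highest cell the median was 1.19, and 13 of the 19 stayed 2-fold higher, or 68.4%. After thinning to 1000000 counts 13 of 30 were found in a larger share of the cells with Cx3cr1, a share of 43.3% against 44.6% of all genes. Glul, glutamine synthetase, was at 911 and 181 CPM, Mt1, a metallothionein, at 180 and 32.5 CPM, and Cpe, a peptidase that neurons also make, at 2337 and 951 CPM. Their log2 folds were 2.32, 2.43 and 1.30, and 1.85, 2.13 and 1.10 without the highest cell of each, P21, P26 and P38. Slc1a2, the main glutamate transporter of astrocytes, was at 4583 and 1487 CPM, but its log2 fold of 1.62 was 0.18 without P27. Gfap, the astrocyte filament protein, was found in 6 and 3 cells, and its log2 fold of 3.33 turned to -1.02 without P16.

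Several astrocyte genes went the other way. Aldoc, an astrocytic aldolase, was at 204 CPM with and 5236 CPM without Cx3cr1, with a log2 fold of -4.68 and of -3.08 without P56. Slc1a3, a further glutamate transporter, was at 7.93 and 446 CPM, with -5.64 and -1.16 without P37. F3, tissue factor, was at 0.126 and 2.2 CPM, with -1.49 and -0.84 without P56. Summed over the list the median was 6781 CPM with and 5693 CPM without, in ranges of 1.22 to 96598 and 7.67 to 122939 CPM.

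**Figure D4:**
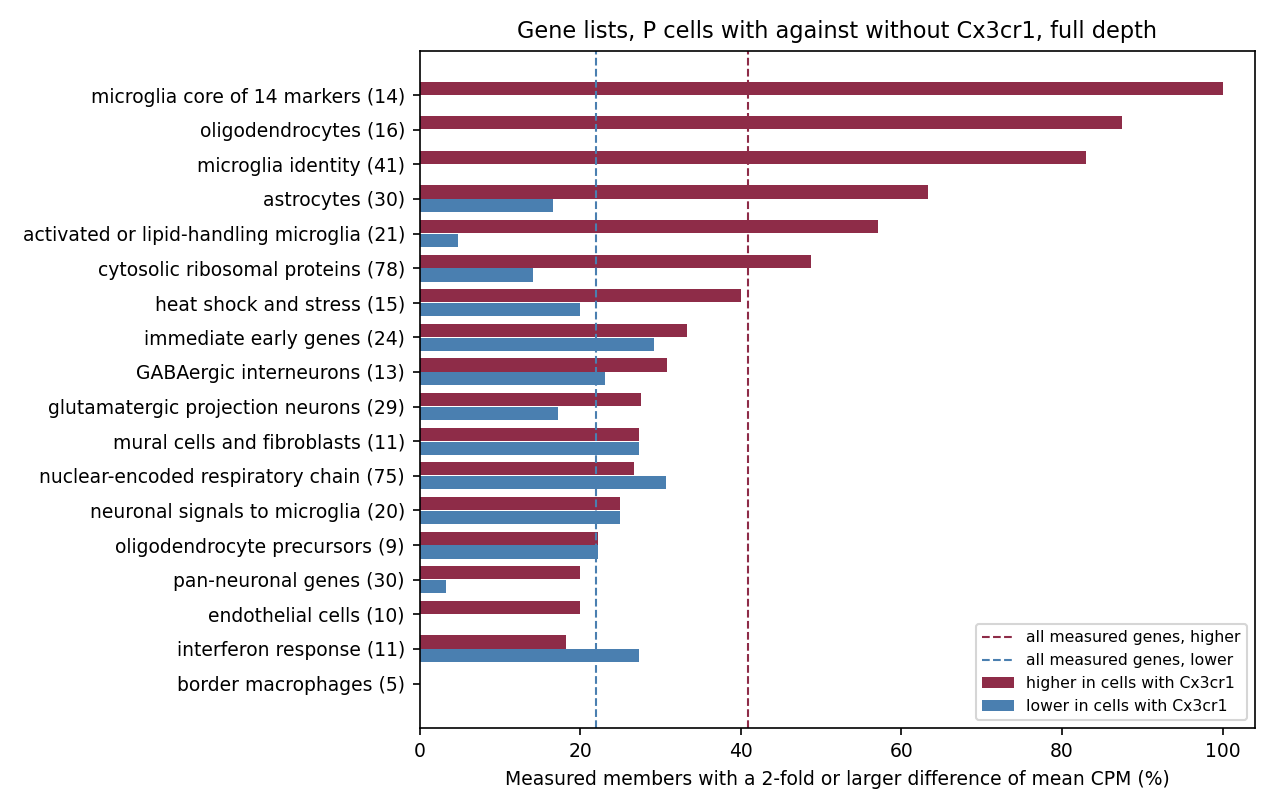
Percent of the measured members of each gene list (number in brackets) whose mean CPM was at least 2-fold higher (red) or lower (blue) in P cells with Cx3cr1, at full depth. Dashed lines mark all 11247 measured genes, 40.9% higher and 22% lower. The core and longer microglial lists and the oligodendrocyte list lie farthest to the right of the red line, and the neuronal lists lie left of it.

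Vascular and mural lists had smaller shares of higher members than all genes. The precursor list did so at full depth and after thinning to equal depth, but not at 1000000 counts. Of 9 oligodendrocyte precursor genes 2 were at least 2-fold higher and 2 lower, and at 1000000 counts 4 and 3, or 44.4% higher against 38% of all genes. Cspg5, a proteoglycan, had a log2 fold of 1.09 and of 0.40 without P24. Ptprz1, a receptor phosphatase, had -1.22 and 1.78 without P44, and Pdgfra, which defines precursors, had 19 counts in 6 cells with and none without. Of 10 endothelial genes 2 were higher and 0 lower. Slco1a4, a transporter of brain endothelium, had a log2 fold of 1.67 and of -0.04 without P25. Cldn5, a tight junction protein, was found in 2 and 1 cells. Of 11 mural and fibroblast genes 3 were higher and 3 lower. Pdgfrb, the pericyte receptor, had a log2 fold of 2.57 and of -0.37 without P16, and Acta2, smooth muscle actin, had -4.40 and -0.20 without P35. None of the 5 differences named here with a fold stayed 2-fold in its direction without 1 cell.

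Neuronal genes were found on both sides at overlapping levels. Of 30 pan-neuronal genes 6 were at least 2-fold higher and 1 lower, or 20% and 3.33% against 40.9% and 22% of all genes. Their median log2 fold was 0.16. At 1000000 counts 2 of 30 were found in a larger share of the cells with Cx3cr1, or 6.67% against 44.6% of all genes. Snap25, a protein of synaptic vesicle fusion, was found in 30 of 31 cells with and 21 of 28 without, at 1852 and 2063 CPM. Map2, of the dendritic cytoskeleton, was at 761 and 204 CPM, with a log2 fold of 1.90 and of 1.63 without P27. Rbfox3, the nuclear protein NeuN, was at 157 and 399 CPM, and its log2 fold of -1.34 turned to 0.37 without P36. The summed level of the 30 genes was 40018 CPM at the median with Cx3cr1 and 31720 without, with ranges of 356 to 96800 and 100.1 to 142156. P32, highest in microglial RNA, had 12 of the 30 and P21 had 11. P4 and P33, next by microglial level, had 25 and 21, and P2, with 13 core markers, had 30.

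Markers of projection neurons and interneurons were found on both sides. Of 29 glutamatergic genes 8 were at least 2-fold higher and 5 lower, or 27.6% and 17.2%. Of 13 GABAergic genes it was 4 and 3, or 30.8% and 23.1%. Over all genes these shares were 40.9% and 22%. Slc17a7, the vesicular glutamate transporter, was found in 25 and 15 cells, at 113 and 301 CPM, with a log2 fold of -1.41 that was -0.88 without P75 and 0.19 at 1000000 counts. Camk2a, a kinase of projection neurons, was at 103 and 151 CPM. Neurod6, a transcription factor of cortical projection neurons, was found in 9 and 14 cells, at 48.6 and 515 CPM, with -3.38 and -2.52 without P62. Ptk2b, a tyrosine kinase, had a log2 fold of 1.44 and of 0.45 without P21. Gad1, which makes GABA, was at 88.1 and 172 CPM, and without P67 its log2 fold turned from -0.96 to 4.85. Gad2, of the same function, had 2.24 and 0.29 without P25, and Slc32a1, the vesicular GABA transporter, had -7.36 and -4.42 without P44.

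Cx3cl1, the neuronal ligand of the fractalkine pair, had similar means on both sides. It was found in 24 of 31 cells with Cx3cr1 and 16 of 28 without, at 494 and 455 CPM, a log2 fold of 0.12 at full depth and of -0.12 after thinning. Its highest values were 4894 CPM in P42 and 3661 CPM in P40, and the sides overlapped throughout. Of 20 measured genes for signals from neurons to microglia 5 were at least 2-fold higher and 5 lower, with a median log2 fold of -0.01. These are 25% and 25%, against 40.9% and 22% of all genes. Cd200, which restrains microglia, was at 13 and 14.8 CPM. Cd47, a signal against engulfment, was at 314 and 117 CPM, with a log2 fold of 1.41 that was 0.56 without P24. Il34, the neuronal ligand of Csf1r, was found in 9 and 3 cells, at 16.4 and 7.91 CPM. Csmd1, a complement inhibitor, had a log2 fold of 1.36 and of 1.08 without P65, and Nptx2, a synaptic pentraxin, had -1.19 and 1.03 without P52.

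Immediate early and stress genes went in both directions, as did all measured genes. Of 24 immediate early genes 8 were at least 2-fold higher and 7 lower, or 33.3% and 29.2%. Of 15 heat shock and stress genes it was 6 and 3, or 40% and 20%. Over all genes these shares were 40.9% and 22%. Junb, a transcription factor, was found in 20 and 11 cells, at 30.6 and 7.05 CPM, with a log2 fold of 1.98 and of 1.72 without P70. Fos, of the same family, was at 195 and 78.8 CPM, with 1.30 and 0.28 without P4. Cyr61, a matrix protein, had -2.4 and -1.41 without P61. Xbp1, a factor of the unfolded protein response, had 2.74 and 1.99 without P66, and Hsph1, a chaperone, -1.74 and -0.39 without P43. Of 11 interferon response genes 2 were higher and 3 lower, or 18.2% and 27.3%. Irf9, a transcription factor of that response, had a log2 fold of -3.82 and 0.43 without P40.

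Ribosomal protein genes and respiratory chain genes stood on different sides of the background at full depth. Of 78 cytosolic ribosomal protein genes 38 were at least 2-fold higher and 11 lower, or 48.7% and 14.1%. Of 75 nuclear-encoded respiratory chain genes 20 were higher and 23 lower, or 26.7% and 30.7%. After thinning to 1000000 counts these were 39.7% and 8.97% for the ribosomal and 13.3% and 33.3% for the respiratory genes, against 38% and 23.6% of all genes. At that depth 35.9% of the ribosomal and 17.3% of the respiratory genes were found in a larger share of the cells with Cx3cr1, both under the 44.6% of all genes. Cox7a2l, which joins respiratory complexes, was at 957 and 70.5 CPM, with a log2 fold of 3.74 and of 3.24 without P15.

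Genes found in at least 30% of the thinned cells of a side, with a 2-fold difference of means, were ranked by the share of pairs of a cell with and a cell without in which the first was higher after thinning, and 2 of the 12 leading genes were on the microglial list. Rplp0, a protein of the ribosomal stalk, led with 81.2% of pairs, and was found in 27 of 31 and 16 of 28 cells at 847 and 84.5 CPM. Sfrs18, a nuclear splicing-related protein, followed with 77.8%, at 622 and 183 CPM. Sparc, a matrix protein, and Cst3, a secreted protease inhibitor, both strongly made by microglia and also by astrocytes, were at 76.2% and 72.6%. Sparc was at 105 and 5.03 CPM with a log2 fold of 4.14 and of 3.68 without P31, and Cst3 at 1298 and 181 CPM with 2.84 and 2.62 without P29.

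The other leading genes had varied roles. Celf1, an RNA-binding protein, was at 2092 and 284 CPM, and Rps2, of the small ribosomal subunit, at 695 and 115 CPM. Ptma, prothymosin, was at 107 and 10.5 CPM. Gng3, a G protein subunit, was at 101 and 20.6 CPM, and Fbxo33, of a ubiquitin ligase, at 369 and 49.6 CPM. Fmnl2, an actin regulator, was found in 19 and 6 cells, and Nptn, a neuronal adhesion protein, in 27 and 19. Sh3glb1, a membrane-curving protein of autophagy, was at 327 and 7.76 CPM. Of these 8 genes, log2 folds without the highest cell were 2.02 for Celf1, 2.35 for Rps2, 3.06 for Ptma, 2.08 for Gng3, 2.49 for Fbxo33, 2.37 for Fmnl2, 1.74 for Nptn and 3.70 for Sh3glb1, where they had been 2.88, 2.58, 3.22, 2.25, 2.87, 2.68, 2.02 and 5.22. The highest cells were P14 for Celf1 and Sh3glb1 and P70 for Nptn. For Rplp0 the log2 fold of 3.31 was 2.67 without P14, and for Sfrs18 1.76 was 1.5 without P70.

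Other genes led in the other direction. Map1b, a microtubule protein of neurons, was at 716 CPM with and 4885 without Cx3cr1, with 29.9% of pairs and a log2 fold of -2.77 that was -2.0 without P43. Napb, of vesicle fusion, was at 246 and 1041 CPM with 29.8% of pairs. Camta1, a neuronal transcription factor, had the lowest share of pairs among the ranked genes, 28.8%, at 145 and 377 CPM, but its log2 fold of -1.37 was -0.36 without P53. Ndufb8, of respiratory complex I, was at 19.5 and 182 CPM. Rpl11, of the large ribosomal subunit, was at 975 and 5521 CPM, with a log2 fold of -2.50 that was -0.11 at 1000000 counts. Atp9a, a lipid flippase, was at 35.3 and 1162 CPM, and Slc2a3, the neuronal glucose transporter, at 127 and 692 CPM.

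Some of the remaining genes with lower means rested on few cells. Zbtb6, a zinc finger protein, had 18 counts with and 8073 without, 72.4% of the summed CPM without lying in P5. Ier3ip1, of the endoplasmic reticulum, had a log2 fold of -2.06 and of -0.46 without P41. Map1s, a relative of Map1b, had -3.42 and -2.45 without P43, but -0.28 at 1000000 counts. Sec63, of protein translocation, was found in 10 and 12 cells, with -2.82. Tmem50a, a membrane protein, had -3.02 and -1.89 without P59. Without the highest cell Napb stood at -1.53 (P41), Ndufb8 at -2.73 (P68), Zbtb6 at -1.58 (P5), Rpl11 at -1.51 (P18), Atp9a at -4.30 (P58), Slc2a3 at -1.76 (P59) and Sec63 at -2.33 (P69), from -2.08, -3.16, -3.32, -2.50, -5.00, -2.43 and -2.82.

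The 25 F cells, which the rule did not use, were divided in the same way into 9 with and 16 without Cx3cr1, with median totals of 1792103 and 303619 counts. The median number of core markers was 3 with (0 to 10) and 1 without (0 to 3), and after thinning 1 with (0 to 10) in 9 cells and 0 without (0 to 1) in 11 cells. Of 9739 genes found in at least 3 F cells, 41.4% had a mean at least 2-fold higher with Cx3cr1 and 26.8% lower. Of 27 measured microglial genes 14 were higher and 3 lower, and of 10 measured core genes 6 and 2, with a median log2 fold of 1.06 against 0.42 over all genes. After thinning, with 42.8% and 23.6% of all genes higher and lower, 18 of the 27 were higher and 1 lower. The cells too shallow to be thinned were all without Cx3cr1 and included F22 and F26, with totals of 94080 and 81302 counts. Their summed core levels, 9396 and 11107 CPM, were the highest among the F cells without Cx3cr1. The F values after thinning are therefore no check of the direction at equal depth.

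Among the F cells the genes of the core list differed in direction. Tyrobp was found in 6 of 9 cells with and 1 of 16 without, at 2109 and 0.662 CPM, and C1qb in 5 and 1, at 346 and 0.0133 CPM. Csf1r was at 17.7 and 146 CPM and C1qc at 70.5 and 682 CPM, both lower with Cx3cr1. F5, with 230 counts of Cx3cr1, had 10 core markers of which 10 were left after thinning, F2 with 5 counts had 10 of which 1 was left, and F6 with 57 counts had 3. Of the 6 cells with 1 count, F18 had 7 and F13 had 0. The 16 F libraries numbered 13 to 28 stood apart in that all 16 held Klhl18, Celsr1 and also Pno1 with a count of 2 or more, against 0 of the other 9. Among those other 9, a choice made after seeing the data, 6 cells with stood against 3 without, and 8 of 10 measured core genes were at least 2-fold higher and 0 lower, where 45.5% of all genes were higher and 17.1% lower. The libraries left out include F22 and F26, without Cx3cr1, whose summed core levels were 9396 and 11107 CPM, so the count without them is no check of the direction.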

How the data were processed

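The table that the authors deposited gives, for 84 cells and 19685 gene symbols, the raw count of reads, not normalized. Per the submitters' processing notes, basecalls came from bcl2fastq (1.8.4 or 2.17) and STAR 2.4.0 aligned the reads to mm10. How reads were counted, with which annotation and strand setting, is not given in the sources used here, which leaves overlapping genes and near-identical copies uncertain. Cells were grouped by title. The members and the gene lists were chosen with earlier results of these data known, and no test was made.

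CPM used each cell's total with Cx3cr1 included, and Cx3cr1 was left out of all results. A gene was measured if found in at least 6 P cells (11247 genes). Cells were thinned without replacement to 139788 counts, the total at percentile 10 among P cells, leaving out 1 cell with and 5 without Cx3cr1. Intervals over cells are exact 95% Clopper-Pearson, the limit for a gene found in 0 cells is 3 over the number of cells, and intervals of ratios are exact and cover counting error only. The reads carry no molecular identifiers here, so both are too narrow for molecules. The log2 fold, the share of pairs and the totals after thinning were tested on simulated data. Detection shares, list counts, intervals and values without the highest cell were not. Python 3.11.15 with numpy 2.4.6, pandas 2.3.3, scipy 1.17.1 and matplotlib 3.10.9 was used, and edgeR 4.0.16 for alternative scaling factors.

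The named genes include the 12 per direction that led by the share of pairs after thinning, all 14 core markers and 18 set by name. The leading genes were found in at least 30% of the thinned cells of a side, with a 2-fold difference of means. Up to 8 more microglial genes and up to 3 per direction of each other list were added, if their means differed at least 2-fold. This gave 133 genes, of which 90 are described; that narrowing was made after their values were seen, and some results are not reported here. In the lists, 6 symbols were matched through RefSeq synonyms. Positions and upstream sequences are from RefSeq on GRCm38.p6, the build of mm10.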

Additional observations from a re-analysis of the deposited data

Results flagged for a closer look

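Of 10 tests for a value far from the rest, made on several quantities in 2 groups of 4 and 9 cells, 2 were flagged. The rate of about 1 in 20 by chance holds for independent, normally distributed values, and these quantities overlap, so it cannot be applied to them. Among the 4 P cells with Cx3cr1 of the older basecaller version, P2 had a total of 16251918 counts, far above the other 3. P2 was also the P cell with the most genes of the longer microglial list, 42 of 50. Among the 9 F cells with Cx3cr1, F18 had a summed microglial level of 57765 CPM with 1 count of Cx3cr1, above every P cell.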

How the results depend on the processing

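The count of genes at least 2-fold higher was 2891 with the sides set after thinning, 1913 with means trimmed by 20%, 1548 as a difference of mean log2(CPM + 1) and 2336 with genes found in at least 15 P cells, against 4602, and that of genes at least 2-fold lower was 3716 among the shallower cells, 4051 with sides set after thinning, 322 with trimmed means, 125 as a difference of mean log2(CPM + 1), 1637 with a pseudocount of 10 CPM and 1272 with genes found in at least 15 P cells, against 2476. Measured microglial genes with a higher mean numbered 20 among the shallower cells, 32 with trimmed means and 28 with 1 to 4 Cx3cr1 counts against 0, against 39 of 41. Their median log2 fold, 4.80, was 5.73 among the deeper cells, 0 among the shallower, 5.84 with at least 5 counts against 0, 3.31 with sides set after thinning, 0.077 with trimmed means, 1.06 as a difference of mean log2(CPM + 1), 2.57 with a pseudocount of 10 CPM, 5.72 with genes found in at least 15 P cells, 0.59 with 1 to 4 counts against 0, 3.25 without P32 and 3.21 without P32 and P21. The cause was not tested. Over 22 settings, 17 of them planned and 5 chosen after seeing the data, 87 of 1804 values of the 82 named genes with a 2-fold difference, in 46 genes, had the opposite sign, and 27 of these genes lost the 2-fold difference or turned without 1 cell. The other 8 named genes differed by less than 2-fold, and 42 of their 176 values, in 7 genes (Camk2a, Gad1, Snap25, Cx3cl1, Cd200, Il34 and Mrc1), had the opposite sign, among them Gad1 at 4.85 without its highest cell. No paired analysis was possible because both sides lie within the P cells and no test was made. The opposite signs of the genes with a 2-fold difference, as log2 folds, were these. Among the 30 deeper cells, Ctsb -0.33, Ptprz1 3.32, Hsph1 0.36 and Slc1a2 -1.13. Among the 29 shallower cells, Zbtb6 0.44, Ptprc -0.70, Rgs10 -3.84, Fcgr3 -0.073, Ly86 -0.22, Ctsd -0.85, Pdgfrb -0.38, Ptk2b -0.14, Gad2 -2.42, Gfap -1.21, Mbp -1.0, Cldn5 -0.032 and Fos -1.82. With at least 5 Cx3cr1 counts against 0, Xbp1 -0.21. With sides set after thinning, Fbxo33 -0.85, Nptn -0.58, Tmem119 -3.73, F3 0.067, Ptprz1 0.46, Ptk2b -1.13, Map2 -0.32, Cd47 -0.75, Xbp1 -2.87, Hsph1 0.15, Slc1a2 -0.91, Mbp -1.17 and Cldn5 -1.78. With means trimmed by 20%, Slc1a3 0.49, Pdgfrb -0.018 and Slc17a7 0.49. As differences of mean log2(CPM + 1), Slc17a7 0.87. With pooled counts, Cd47 -0.43 and Slc1a2 -0.55. With TMMwsp scaling factors, Hbb.b2 0.83. Within the older basecaller version, Fbxo33 -1.22, Fmnl2 -1.10, Nptn -1.59, Ndufb8 0.95, Ier3ip1 0.31, Rpl11 3.35, Map1s 2.08, Slc2a3 0.22, Ctsd -0.26, Ctsb -1.90, Csf1 0.18, Cpe -0.83, Mt1 -1.10, F3 0.15, Aldoc 8.10, Cspg5 -4.49, Ptprz1 2.47, Slco1a4 -0.25, Acta2 0.56, Slc32a1 0.78, Map2 -1.15, Rbfox3 0.65, Csmd1 -0.72, Cd47 -1.67, Nptx2 0.17, Xbp1 -5.13, Slc1a2 -4.13 and Mbp -2.88. At 1000000 counts, Nptx2 0.54 and Slc17a7 0.19. With 1 to 4 counts against 0, C1qb -0.21, Ptprc -0.58, Ly86 -0.93, Pdgfrb -0.32, Gad2 -0.016, Gfap -0.97, Cldn5 -0.0033 and Fos -0.71. Without P32, Ptprc -0.68. Without P32 and P21, Ptprc -0.67. Without its highest cell, Ptprc -0.68, Ptprz1 1.78, Slco1a4 -0.039, Pdgfrb -0.37, Rbfox3 0.37, Nptx2 1.03, Irf9 0.43, Gfap -1.02 and Cldn5 -0.012. Depth limits detection: taken as 3 of 28, a gene in 0 of 28 cells without Cx3cr1 allows a share of up to 10.7% (12.3% as the Clopper-Pearson limit), and 5 of these cells held fewer than 100000 counts.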
